A study of Mus musculus with 8 samples.

Results

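The interferon response genes and the sensors of foreign or misplaced nucleic acid were examined in the cerebellum of mice that carry or lack *Atm*. The group comprised 39 genes, listed by name as interferon-stimulated genes and as sensors of DNA or RNA, out of 56691 genes in the table of counts. All 39 were found in the table and passed the filter on low counts. Bulk RNA sequencing had been carried out on frozen cerebellum of 4 *Atm*-WT mice (ATM +/+) and 4 *Atm*-KO mice (ATM -/-), with a library for each mouse. The mice came from the B6;129S4-Atmtm1Bal/J line, a germline knockout on a mixed background, and were 6 months old. Mouse 7F of the *Atm*-KO group is marked F in its label and the other mice are marked M. In the study's methods, brains were taken after perfusion with saline. The labels name no treatment for either genotype. In the text below, *Atm*-WT values are given in the order of mice 2M, 7M, 13M and 32M, and *Atm*-KO values in the order of mice 1M, 7F, 11M and 12M. A level is given as CPM, the counts scaled to a library of 1000000, after TMM normalization, and a difference as the log2 fold change of *Atm*-KO over *Atm*-WT from edgeR with its standard error (SE).

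Cells recognise stray nucleic acid with dedicated sensors. cGAS binds DNA in the cytosol and signals through STING, and MDA5 binds long RNA duplexes, and both routes activate the kinase TBK1 and the transcription factor IRF3, which turn on type I interferon genes. Secreted interferon binds the receptor formed by IFNAR1 and IFNAR2, and a complex that contains STAT2 and IRF9 then enters the nucleus, binds interferon-stimulated response elements and induces a large set of antiviral genes. ATM is the kinase that signals DNA breaks, and broken DNA that reaches the cytosol is a known ligand of cGAS. In the brain, microglia and endothelial cells are prominent among the cells that express interferon-stimulated genes.

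Library totals ranged from 65967130 to 88030300 counts, and the 39 genes together took between 0.0305% and 0.0390% of them. *Atm* itself (chromosome 9, 53348097 to 53448236, GRCm39) was at 67.6, 80.0, 79.4 and 59.0 CPM in *Atm*-WT and at 51.1, 44.3, 41.1 and 44.9 CPM in *Atm*-KO mice, so the genotypes did not overlap. Its log2 fold change was −0.66 (SE 0.10, edgeR adjusted p = 0.0775, n = 4 mice per genotype). The count covers the whole gene, including exons that the targeted allele may retain. The cerebellar origin of the tissue was plain from its markers, with 6 of 6 granule cell markers and 6 of 6 Purkinje cell markers measured and summed levels of at least 4667 and 8046 CPM in every mouse.

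The promoters of the members were inspected for the sequence to which the interferon-induced complex binds. RefSeq promoters on build GRCm38.p6, each running from 250 bases before to 50 bases after the transcription start, were at hand for 29 of the 39 genes (34 promoters). The table held no entry for *Usp18*, *Mx1*, *Mx2*, *Zbp1*, *Oas2*, *Ifi27*, *Parp9*, *Rtp4*, *Sting1* and *Parp14*. The core of the interferon-stimulated response element was searched as GAAANNGAAA on both strands, so that a copy in the other orientation reads TTTC, any pair of bases, TTTC. Printed below are 6 genes that held the core and had an unadjusted edgeR p under 0.05, followed by *Lgals3bp* and *Dtx3l*, which had such a p without it. The sequences run 5′ to 3′ along the gene, and capitals mark the core in either orientation. The windows lie at chr7:141010695-141010994 (minus strand) for *Ifitm3*, chr19:34583279-34583578 (plus strand) for *Ifit3*, chr8:71537423-71537722 (minus strand) for *Bst2*, chr10:128270248-128270547 (plus strand) for *Stat2*, chr3:142620413-142620712 (plus strand) for *Gbp2*, chr19:34640639-34640938 (plus strand) for *Ifit1*, chr11:118401910-118402209 (minus strand) for *Lgals3bp* and chr16:35938978-35939277 (minus strand) for *Dtx3l*.
Ifitm3: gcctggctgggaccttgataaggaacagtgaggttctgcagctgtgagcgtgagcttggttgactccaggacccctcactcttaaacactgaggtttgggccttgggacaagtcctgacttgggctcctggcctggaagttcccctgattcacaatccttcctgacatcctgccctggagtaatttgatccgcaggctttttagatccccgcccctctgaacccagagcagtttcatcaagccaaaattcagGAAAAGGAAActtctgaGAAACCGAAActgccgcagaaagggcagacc
Ifit3: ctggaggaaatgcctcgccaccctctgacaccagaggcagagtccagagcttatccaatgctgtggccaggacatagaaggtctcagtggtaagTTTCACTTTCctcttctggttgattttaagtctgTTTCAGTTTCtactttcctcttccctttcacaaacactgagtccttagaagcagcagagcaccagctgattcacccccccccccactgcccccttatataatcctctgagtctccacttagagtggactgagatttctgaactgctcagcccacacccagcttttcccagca
Bst2: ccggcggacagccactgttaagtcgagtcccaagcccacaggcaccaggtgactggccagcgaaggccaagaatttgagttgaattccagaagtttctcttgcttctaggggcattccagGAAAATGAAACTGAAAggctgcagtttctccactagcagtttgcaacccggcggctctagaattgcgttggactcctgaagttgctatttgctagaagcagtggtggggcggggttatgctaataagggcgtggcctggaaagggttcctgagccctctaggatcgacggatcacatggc
Stat2: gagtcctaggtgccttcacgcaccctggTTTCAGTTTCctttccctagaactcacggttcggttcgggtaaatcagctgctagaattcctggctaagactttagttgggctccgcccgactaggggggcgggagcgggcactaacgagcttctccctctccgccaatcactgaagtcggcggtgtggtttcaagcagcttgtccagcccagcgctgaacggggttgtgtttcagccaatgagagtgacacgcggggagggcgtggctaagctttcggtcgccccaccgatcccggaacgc
Gbp2: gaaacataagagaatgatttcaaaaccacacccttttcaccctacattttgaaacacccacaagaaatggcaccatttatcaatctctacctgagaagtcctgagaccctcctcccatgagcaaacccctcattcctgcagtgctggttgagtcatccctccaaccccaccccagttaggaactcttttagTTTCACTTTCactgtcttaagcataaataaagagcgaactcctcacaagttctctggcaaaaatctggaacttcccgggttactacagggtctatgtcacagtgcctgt
Ifit1: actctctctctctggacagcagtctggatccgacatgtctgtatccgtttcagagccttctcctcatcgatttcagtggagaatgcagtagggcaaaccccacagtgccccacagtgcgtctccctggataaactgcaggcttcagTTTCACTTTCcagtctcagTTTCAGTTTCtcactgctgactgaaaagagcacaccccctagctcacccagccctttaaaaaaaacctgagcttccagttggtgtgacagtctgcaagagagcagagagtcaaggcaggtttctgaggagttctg
Lgals3bp: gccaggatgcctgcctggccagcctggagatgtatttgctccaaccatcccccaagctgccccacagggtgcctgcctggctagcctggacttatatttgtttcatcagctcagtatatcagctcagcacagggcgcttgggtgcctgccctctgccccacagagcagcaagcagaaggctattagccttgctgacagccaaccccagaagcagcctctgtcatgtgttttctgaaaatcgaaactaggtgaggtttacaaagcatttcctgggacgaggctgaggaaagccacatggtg
Dtx3l: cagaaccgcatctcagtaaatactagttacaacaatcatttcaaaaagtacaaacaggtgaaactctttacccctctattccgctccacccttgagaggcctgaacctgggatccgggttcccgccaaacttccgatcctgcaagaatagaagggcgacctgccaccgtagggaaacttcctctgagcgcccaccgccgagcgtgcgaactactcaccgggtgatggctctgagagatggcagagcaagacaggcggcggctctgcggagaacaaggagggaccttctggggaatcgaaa

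Of the 29 genes with a promoter, 14 (48.3%) held the core at least once, and 8 of them held it 2 or more times within a promoter. Among all 27025 genes of the promoter table the share was 3.99%, and among single promoters it was 44.1% of the 34 from these genes against 3.44% of 32851. *Isg15* held 3 copies in an overlapping series from position −78, and in *Bst2* a pair of copies overlapped from position −130. *Ifit3*, *Ifit1* and *Ifit3b* each had 2 copies upstream of the start, in reverse orientation. In *Ifitm3* both copies lay after the start, at positions 3 and 20. The gamma-activated site, written TTCNNNGAA, through which interferon gamma acts, was found in 9 of the 29 genes, *Ifitm3* and *Bst2* among them, and in 9.55% of all genes of the table. A match of letters is a description and does not show that a factor is bound.

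**Figure D1:**
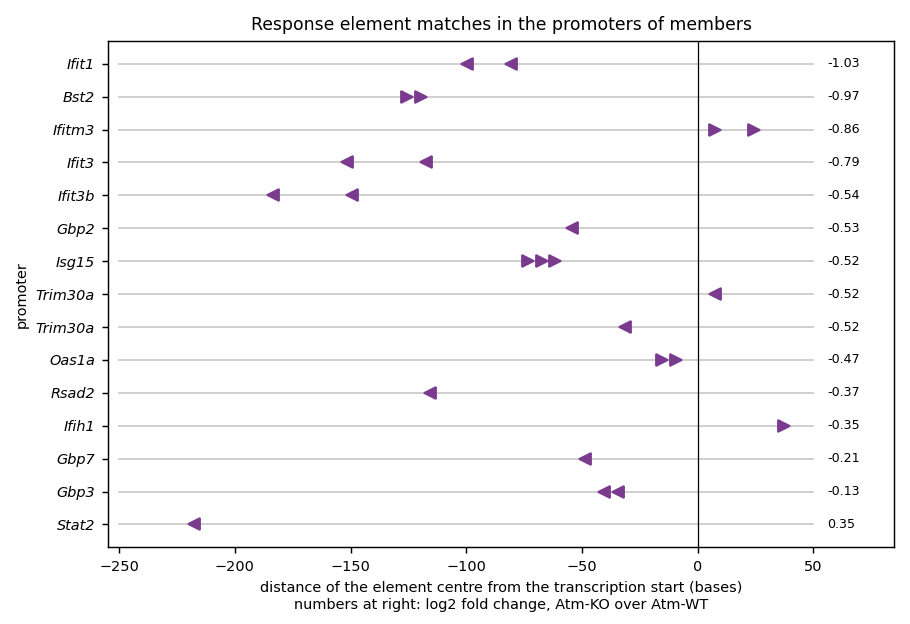
Positions of the response element core in the 15 promoters of the 14 genes that hold it, in bases from the transcription start (x axis), ordered by log2 fold change (printed at the right). Arrowheads point right for the forward orientation and left for the reverse. Most copies lie before the start, and those of *Ifitm3*, *Ifih1* and 1 promoter of *Trim30a* lie at or after it.

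Across the whole group the *Atm*-KO level was more often the lower one. The fitted log2 fold change was negative for 33 of 39 genes and positive for 6, with a median of −0.35, whereas 53.1% of the 22423 genes tested were negative and their median was −0.02. Most of this came from the genes downstream of the receptor and its factors, since 26 of those 27 were negative (median −0.42). The 5 genes of the sensor and kinase role had a median of 0.10, the value of the kinase *Tbk1*. Of these 5, 2 were negative (*Cgas* at −0.50 and *Ifih1* at −0.35) and 3 positive. The transcription factors had a median of −0.18. No gene of the group reached an adjusted p under 0.05 in edgeR, where 0.00892% of all genes tested were called lower and 0.00892% higher in *Atm*-KO mice. The smallest adjusted p of the group was 0.0931. At an unadjusted p under 0.05, 12 of the 39 were lower (8.48% of all genes tested) and 1 was higher (11.7% of all genes tested). In 4 genes all *Atm*-KO mice lay below all *Atm*-WT mice (5.12% of all genes tested), and in 1 gene every *Atm*-KO mouse lay above (6.47% of all genes tested). These p-values set the difference between genotypes against the spread between mice, which edgeR moderates across genes. The 95% interval of 26 of the 39 genes covered 0.

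**Figure D2:**
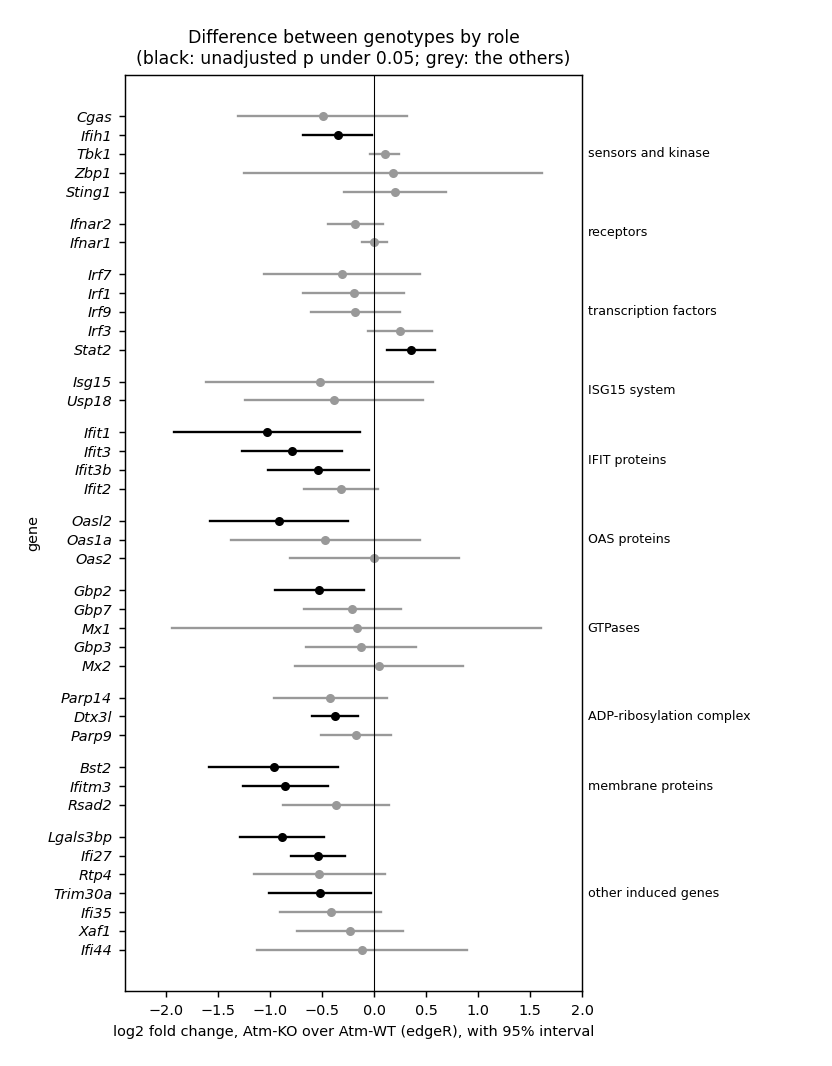
Log2 fold change of each of the 39 genes (x axis, *Atm*-KO over *Atm*-WT, edgeR) with its 95% interval, grouped by role. Black marks the 13 genes with an unadjusted p under 0.05 and grey the other 26; among the black ones, *Stat2* alone lies to the right of 0.

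The tool mattered for the calls. DESeq2 gave nearly the same fold changes and called 8 of the 39 genes at an adjusted p under 0.05, 7 lower and 1 higher, against 2.44% of all genes with an adjusted p called lower and 5.05% called higher. The 7 were *Lgals3bp* (adjusted p = 0.000372 by DESeq2), *Ifitm3* (0.000674), *Ifi27* (0.00189), *Ifit3* (0.00614), *Dtx3l* (0.0127), *Bst2* (0.0178) and *Oasl2* (0.0233), and the one called higher was *Stat2* (0.0456). Without the filter on low counts, edgeR called 4 lower, *Lgals3bp*, *Ifi27*, *Ifitm3* and *Ifit3*, and none higher, where 0.479% of all genes tested were called lower and 1.14% higher. With limma voom none was called (0.00892% of all genes tested lower and 0.00446% higher). At an unadjusted p under 0.05 in voom, 10 of the 39 were lower (8.21% of all genes tested) and 1 was higher (12% of all genes tested).

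Among the sensors, the DNA-sensing arm gave small or imprecise differences. *Cgas*, which lies on the chromosome of *Atm* at a distance of 25.0 Mb, was scarcely expressed, at 0.818, 0.860, 0.466 and 0.467 CPM in *Atm*-WT and 0.269, 0.426, 0.748 and 0.400 CPM in *Atm*-KO mice. These ranges overlapped widely, and with 22 to 64 counts per mouse the log2 fold change of −0.50 had a 95% interval from −1.31 to 0.31. *Sting1*, the adaptor that carries the cGAS signal, was at 1.11, 1.05, 1.33 and 1.62 CPM in *Atm*-WT and 1.36, 1.57, 1.19 and 1.75 CPM in *Atm*-KO mice. Its ranges overlapped too, and its log2 fold change was 0.20 (SE 0.22). *Tbk1*, the kinase on which DNA and RNA sensing converge, was at 53.2 TPM, a level corrected for gene length, in *Atm*-WT and at 61.0 TPM in *Atm*-KO mice, among the highest of the 39 genes in both. Its log2 fold change was 0.10, with a 95% interval from −0.04 to 0.24.

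The RNA sensor MDA5, encoded by *Ifih1*, was the only one of the 5 genes of this role with an unadjusted p under 0.05 (8.48% of all genes tested were lower and 11.7% higher). It stood at 9.46, 10.8, 7.14 and 10.1 CPM in *Atm*-WT and at 6.87, 6.73, 6.92 and 8.93 CPM in *Atm*-KO mice. Mouse 12M was set well above the other *Atm*-KO mice and within the *Atm*-WT range. The log2 fold change was −0.35 (SE 0.15, edgeR unadjusted p = 0.0394, adjusted p = 0.223). *Zbp1*, a sensor of left-handed nucleic acid that can start cell death, had at most 22 counts in a mouse, and its log2 fold change of 0.18 carried an interval from −1.26 to 1.62.

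Both receptor subunits were well expressed and close between genotypes. *Ifnar1* lay between 62.6 and 69.3 CPM in all 8 mice, with a log2 fold change of −0.00 and a 95% interval from −0.12 to 0.12. *Ifnar2* had a log2 fold change of −0.18 with an interval from −0.45 to 0.08.

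The transcription factors were the one role in which the gene with the smallest p was higher in *Atm*-KO mice. *Stat2* (chromosome 10, 128106352 to 128128735, GRCm39), the subunit that gives the interferon-induced complex its activating domain, was at 51.6, 53.2, 54.2 and 46.3 CPM in *Atm*-WT and at 65.2, 59.2, 56.8 and 80.6 CPM in *Atm*-KO mice. Every *Atm*-KO mouse was above every *Atm*-WT mouse, with mouse 12M the highest. The means were 51.3 ± 3.51 and 65.5 ± 10.7 CPM (SD, n = 4 each), and the log2 fold change was 0.35 (SE 0.10, edgeR adjusted p = 0.123). It was 0.18 when 1 surrogate variable was added to the model. *Irf3*, which TBK1 phosphorylates, was also on the higher side (log2 fold change 0.24, 95% interval −0.06 to 0.55), and was at 0.12 with the surrogate variable.

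The remaining factors had negative values within the spread of the mice. *Irf7*, itself induced by interferon and the main amplifier of the response, was at 1.97, 1.93, 1.25 and 2.40 CPM in *Atm*-WT and at 1.44, 0.620, 1.83 and 2.19 CPM in *Atm*-KO mice. Only mouse 7F lay below the *Atm*-WT range, and the log2 fold change was −0.31 with an interval from −1.06 to 0.44. The intervals of *Irf1* (log2 fold change −0.20) and of *Irf9* (log2 fold change −0.18), the DNA-binding partner of STAT2, covered 0 as well. With 1 surrogate variable, *Irf7*, *Irf1* and *Irf9* were at −0.50, −0.12 and −0.42.

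All 4 genes of the IFIT family, whose products bind viral RNA, had lower means in *Atm*-KO mice, where 53.1% of all genes tested were negative, and 3 of them had an unadjusted p under 0.05 (8.48% of all genes tested). *Ifit1* (chromosome 19, 34618271 to 34632174, GRCm39) was at 6.04, 10.99, 2.88 and 9.77 CPM in *Atm*-WT and at 4.67, 1.601, 3.29 and 4.94 CPM in *Atm*-KO mice. Its log2 fold change of −1.03 (SE 0.41, edgeR adjusted p = 0.191) was the largest in size of the 39 genes. *Atm*-WT mouse 13M was below 3 of the 4 *Atm*-KO mice, whereas the other *Atm*-WT mice were above all of them.

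*Ifit3*, which pairs with IFIT1 on RNA, and its near copy *Ifit3b* ranked the *Atm*-WT mice in the same order as each other. *Ifit3* (chromosome 19, 34560899 to 34566443) was at 16.4, 23.4, 10.4 and 20.1 CPM in *Atm*-WT and at 12.1, 7.87, 9.53 and 11.04 CPM in *Atm*-KO mice, which gave −0.79 on the log2 scale (SE 0.22, edgeR adjusted p = 0.111). *Ifit3b* was at 11.8, 14.2, 6.66 and 12.8 CPM in *Atm*-WT and at 8.69, 6.30, 6.43 and 9.77 CPM in *Atm*-KO mice, which gave −0.54 on the log2 scale (SE 0.22, adjusted p = 0.207). In both genes mouse 13M alone kept the genotypes from separating. The transcripts of the pair share sequence, with 16.7% of the 100-base words of *Ifit3* found in *Ifit3b*, so reads may have been split between them. *Ifit2* had a log2 fold change of −0.32 (95% interval −0.68 to 0.04), and was at −0.15 when 1 surrogate variable was added to the model.

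The ISG15 system, a ubiquitin-like modifier and its remover, was at low levels and varied widely among mice. *Isg15* was at 0.317, 0.591, 0.140 and 0.851 CPM in *Atm*-WT and at 0.331, 0.194, 0.426 and 0.370 CPM in *Atm*-KO mice, from 12 to 73 counts. All *Atm*-KO mice lay inside the *Atm*-WT range, and the log2 fold change of −0.52 had an interval from −1.61 to 0.57. It was −0.08 without *Atm*-WT mouse 32M and −0.82 without mouse 13M. *Usp18*, the enzyme that removes ISG15 and restrains the receptor, gave −0.39 with an interval from −1.24 to 0.47.

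Active members of the OAS family make the oligoadenylates that switch on RNase L. Of the 3 OAS genes, 1 had an unadjusted p under 0.05, where 8.48% of all genes tested were lower and 11.7% higher. This was *Oasl2* (chromosome 5, 115034997 to 115050295). It was at 5.94, 6.72, 2.09 and 5.45 CPM in *Atm*-WT and at 3.05, 2.18, 2.32 and 3.12 CPM in *Atm*-KO mice. Mouse 13M was the lowest of all 8 mice, and the other 3 *Atm*-WT mice were above every *Atm*-KO mouse. The log2 fold change was −0.92 (SE 0.30, edgeR adjusted p = 0.144). *Oas1a*, which shares 9.36% of its 100-base words with *Oas1g*, had −0.47 and *Oas2* had −0.00, both with intervals on either side of 0.

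Of the 5 interferon-induced GTPases, 1 had an unadjusted p under 0.05, where 8.48% of all genes tested were lower and 11.7% higher. This was *Gbp2*, a guanylate-binding protein that acts on membranes of intracellular pathogens. It was at 4.63, 5.29, 3.57 and 5.99 CPM in *Atm*-WT and at 4.08, 2.81, 2.89 and 3.72 CPM in *Atm*-KO mice, which gave −0.53 on the log2 scale (SE 0.20, edgeR adjusted p = 0.173). Only mouse 13M lay within the *Atm*-KO range. *Gbp7* was at 5.30, 7.04, 4.28 and 6.87 CPM in *Atm*-WT and at 5.91, 3.29, 5.53 and 5.54 CPM in *Atm*-KO mice, where mouse 7F stood apart on the low side. *Gbp7* and *Gbp3* had log2 fold changes of −0.21 and −0.13, and both intervals covered 0. *Mx1* and *Mx2*, dynamin-like antiviral proteins, reached at most 1.504 CPM in a mouse, and *Mx1* had 0 counts in mouse 13M, which allows up to 0.0350 CPM by counting error alone. Their log2 fold changes were −0.17 (interval −1.94 to 1.604) and 0.05 (interval −0.76 to 0.86).

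The ADP-ribosylation genes comprised *Parp9* and *Dtx3l*, whose products form a ubiquitin ligase complex, and *Parp14*. *Dtx3l* (chromosome 16, 35746881 to 35759521) was at 14.2, 16.8, 13.8 and 13.2 CPM in *Atm*-WT and at 11.6, 10.9, 11.4 and 10.7 CPM in *Atm*-KO mice. All *Atm*-KO values were under the lowest *Atm*-WT value, and they were close together. The means were 14.5 ± 1.57 and 11.1 ± 0.441 CPM (SD, n = 4 each), and the log2 fold change was −0.38 (SE 0.10, edgeR adjusted p = 0.105). *Parp9*, its neighbour on the opposite strand with which it shares 8.0% of its exon length, had −0.17 (interval −0.51 to 0.16), and *Parp14* had −0.42 (interval −0.96 to 0.12), which was −0.15 without *Atm*-WT mouse 7M.

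The 3 genes of membrane proteins that restrict viruses had a median log2 fold change of −0.86, and 2 of them were lower at an unadjusted p under 0.05 (8.48% of all genes tested). *Ifitm3* (chromosome 7, 140589499 to 140591282), which blocks the fusion of virus and endosome, was at 5.67, 6.08, 3.998 and 6.46 CPM in *Atm*-WT and at 2.87, 3.80, 2.71 and 2.90 CPM in *Atm*-KO mice. The genotypes did not overlap, and mouse 13M came closest to the *Atm*-KO values. The means were 5.55 ± 1.09 and 3.07 ± 0.492 CPM (SD, n = 4 each), and the log2 fold change was −0.86 (SE 0.19, edgeR adjusted p = 0.0931). An antisense gene, *Gm57251*, covers 60.9% of the exon length of *Ifitm3*, and reads of both genes cannot be told apart because the strand setting of the counting is unknown.

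*Bst2*, or tetherin, which holds budding virus at the cell surface, was at 2.69, 1.81, 1.096 and 2.66 CPM in *Atm*-WT and at 1.20, 1.14, 0.941 and 0.933 CPM in *Atm*-KO mice. Mouse 13M was within the *Atm*-KO range and the other *Atm*-WT mice were above it. The log2 fold change was −0.97 (SE 0.28, edgeR adjusted p = 0.119), the second largest in size of the 39. *Rsad2*, or viperin, an enzyme that makes a nucleotide that stops viral RNA synthesis, had −0.37 with an interval from −0.87 to 0.14.

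The other induced genes included the smallest p of the group and another gene without overlap. *Lgals3bp* (chromosome 11, 118280716 to 118292918), a secreted glycoprotein that binds galectins, was at 14.4, 13.6, 7.49 and 11.8 CPM in *Atm*-WT and at 5.57, 6.002, 7.16 and 6.76 CPM in *Atm*-KO mice. The genotypes did not overlap, though mouse 13M was just above the *Atm*-KO mice. The means were 11.8 ± 3.07 and 6.37 ± 0.718 CPM (SD, n = 4 each), the *Atm*-KO mean being 54.02% of the *Atm*-WT mean. The log2 fold change was −0.89 (SE 0.19, edgeR unadjusted p = 0.000502, adjusted p = 0.0931).

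*Ifi27* (chromosome 12, 103392254 to 103407799), a small hydrophobic protein of intracellular membranes, was at 21.8, 18.4, 14.9 and 21.2 CPM in *Atm*-WT and at 12.8, 12.99, 12.6 and 13.8 CPM in *Atm*-KO mice. Here too the genotypes did not overlap, and the *Atm*-KO mice lay within a narrow range. The means were 19.1 ± 3.19 and 13.1 ± 0.522 CPM (SD, n = 4 each), a log2 fold change of −0.55 (SE 0.12, edgeR adjusted p = 0.0931). *Trim30a*, a tripartite-motif protein of immune cells, was at 4.04, 4.73, 2.60 and 4.13 CPM in *Atm*-WT and at 3.42, 1.98, 2.68 and 2.69 CPM in *Atm*-KO mice, which gave −0.52 on the log2 scale (SE 0.22, adjusted p = 0.219). Mouse 13M again fell inside the *Atm*-KO range. The values of *Rtp4* (−0.53), *Ifi35* (−0.42), *Xaf1* (−0.23) and *Ifi44* (−0.12) were all negative with intervals that covered 0.

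**Figure D3:**
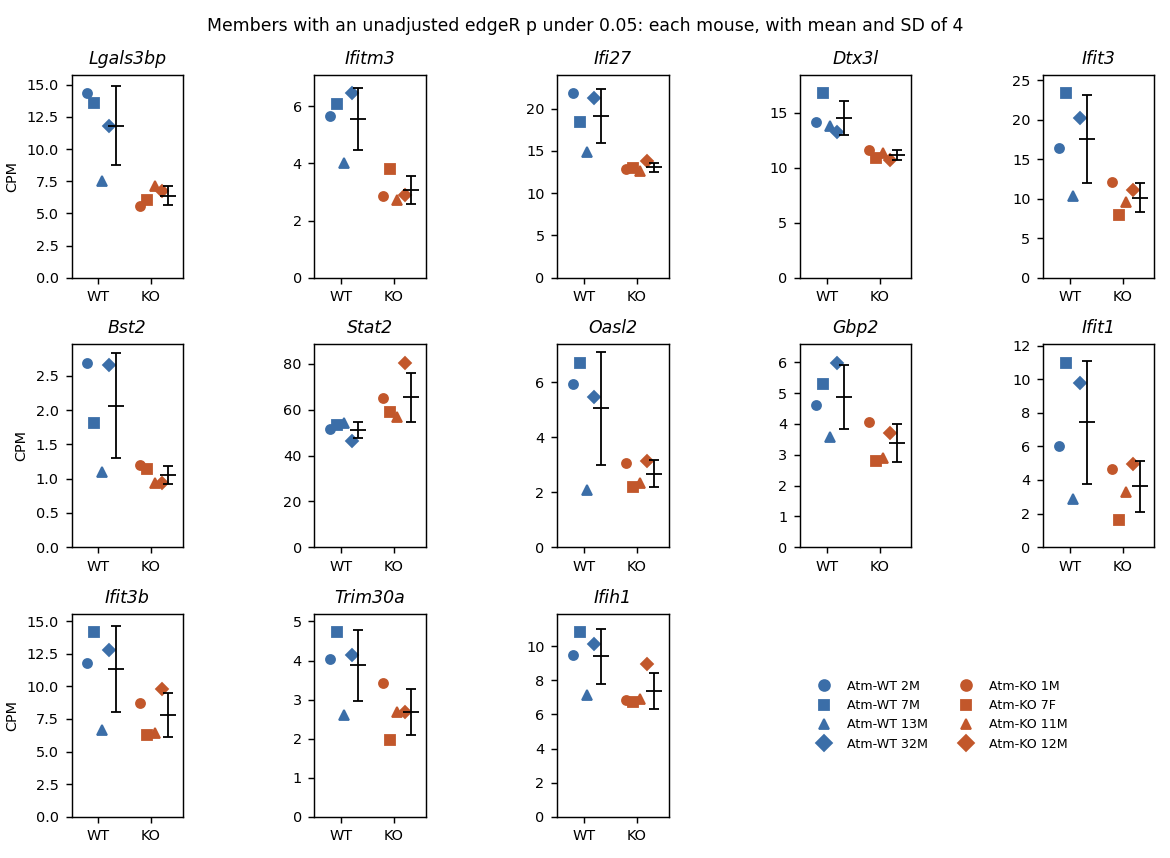
CPM after TMM normalization (y axis, from 0) in each mouse for the 13 genes with an unadjusted edgeR p under 0.05, with *Atm*-WT mice in blue and *Atm*-KO mice in orange; the bar beside each group is the mean ± SD of 4 mice. In most panels mouse 13M (blue triangle) is the lowest *Atm*-WT mouse, and in the *Stat2* panel the *Atm*-KO mice are above the *Atm*-WT mice.

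The genes that hold the response element core and those that do not were set side by side, without a test. The 14 genes with the core had a median log2 fold change of −0.52 (range −1.03 to 0.35), and 13 of them were negative. The 15 genes with a promoter but no core had a median of −0.23 (range −0.92 to 0.24), and 13 of them were negative too. Of the 12 genes with a promoter and an unadjusted p under 0.05, 9 held the core, as in the sequences of *Ifit3*, *Ifit1* and *Bst2* above. The share was 48.3% among all 29 genes with a promoter. *Lgals3bp*, *Dtx3l* and *Oasl2* had such a p without the core. *Stat2*, with 1 copy at position −222, was the only gene with the core whose value was positive.

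The mice of each genotype differed among themselves in the whole group at once. Mouse 13M had the lowest *Atm*-WT level in 32 of the 39 genes (82.1%), against 24.1% of all genes tested, and mouse 7F had the lowest *Atm*-KO level in 23 (59.0%), against 25.2%. The highest of all 8 values belonged to mouse 7M in 13 genes and to mouse 32M in 13, and in none to mouse 13M or 7F. The median over the 39 genes, as log2 CPM minus the *Atm*-WT mean, was 0.05, 0.19, −0.52 and 0.24 in *Atm*-WT and −0.08, −0.53, −0.34 and −0.16 in *Atm*-KO mice. Mouse 13M was thus about as low as mouse 7F and lower than the other 3 *Atm*-KO mice. The SD of log2 CPM among *Atm*-WT mice had a median of 0.41 over the 39 genes and 0.21 over all genes tested.

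**Figure D4:**
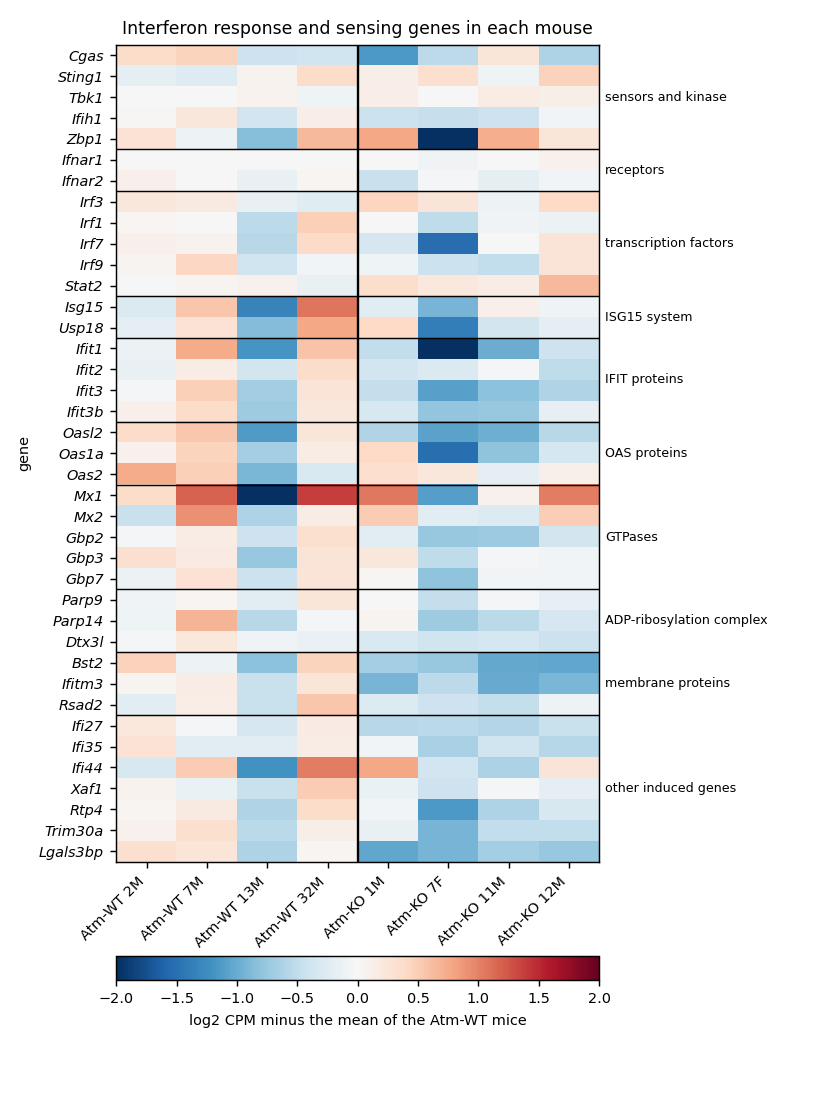
Log2 CPM of each of the 39 genes (rows, by role) in each mouse (columns) minus the mean of the *Atm*-WT mice, from blue (lower) to red (higher), with colours capped at the ends of the bar. The columns of mice 13M and 7F are blue in most rows, and the rows of *Tbk1* and *Ifnar1* are pale throughout.

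Single mice therefore set the counts. Without mouse 13M, edgeR called *Lgals3bp* (adjusted p = 0.0202) and *Ifi27* (adjusted p = 0.0483), against 0.0699% of all genes tested called lower. In the same fit 15 genes were lower at an unadjusted p under 0.05 (7.26% of all genes tested), and in 14 genes the *Atm*-KO mice were all below the other 3 *Atm*-WT mice (7.07% of all genes tested). Without *Atm*-WT mouse 32M the genes lower at an unadjusted p under 0.05 numbered 7 (6.96% of all genes tested) and the median log2 fold change was −0.18. Without *Atm*-KO mouse 7F they also numbered 7 (7.81% of all genes tested), with a median of −0.21. Leaving out 1 library moved the log2 fold change by over 1.5 times in 24 of the 39 genes, and in none of the 13 with an unadjusted p under 0.05. The 13 were picked by their p in the same libraries. Values near 0, such as those of *Oas2* and *Ifnar1*, move easily by this measure. The contrast between the 24 and the 13 therefore does not show that the 13 are steadier. With mice 13M and 7F both left out, a choice made after seeing the data, *Lgals3bp* and *Ifitm3* were called (adjusted p = 0.0490 for each), against 0.111% of all genes tested called lower.

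Markers of microglia, and in part those of endothelial cells, were also on the lower side in *Atm*-KO mice. Of 10 microglia markers, all 10 had negative log2 fold changes and 5 had an unadjusted p under 0.05 (median −0.31; 8.48% of all genes tested were lower at that p, for this and the next lists), with summed levels of 144.6 to 191.6 CPM in *Atm*-WT and 110.3 to 145.9 CPM in *Atm*-KO mice. Of 8 endothelial markers, 5 were negative and 3 positive, where 53.1% of all genes tested were negative. Among the 5, 4 had an unadjusted p under 0.05. The 8 had a median of −0.23, with sums of 255.8 to 286.4 and 209.5 to 269.4 CPM. Of 5 measured markers of plasmacytoid dendritic cells, the specialised producers of interferon, 4 were negative and 2 had an unadjusted p under 0.05, one of them *Bst2* itself, and the sums were 7.30 to 10.8 and 6.42 to 7.53 CPM. In bulk tissue, fewer cells of a type and less RNA per cell cannot be told apart, and the part of these cells in the values of the 39 genes was not tested. The medians of microglia markers by mouse were 0.01, −0.04, −0.24 and 0.20 in *Atm*-WT and −0.34, −0.24, −0.11 and −0.60 in *Atm*-KO mice. Those of endothelial markers were 0.05, −0.02, −0.11 and 0.11 in *Atm*-WT and −0.25, −0.14, −0.03 and −0.45 in *Atm*-KO mice. In both lists mouse 13M was the lowest *Atm*-WT mouse, as it was for the 39 genes. Mouse 12M was the lowest of all in both lists, where the 39 genes had a median of −0.16.

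Against the same 8.48% of all genes tested, astrocyte markers were negative in 6 of 6 (median −0.19, 2 with an unadjusted p under 0.05, summed levels 4720 to 5453 CPM in *Atm*-WT and 4148 to 4947 CPM in *Atm*-KO mice), and oligodendrocyte markers in 6 of 6 (median −0.23, 3 with such a p, 3189 to 4201 and 1926 to 3287 CPM). Choroid plexus markers had a median of −0.60 (3 of 5 lower with such a p, 766.8 to 1534 and 417.8 to 1194 CPM), while granule cell, Purkinje cell and meningeal fibroblast markers had medians of −0.01, −0.09 and −0.00. T cell and neutrophil markers were near absent, with 2 of 6 and 1 of 6 passing the filter on low counts. Red blood cell markers had a median of 0.61 and no unadjusted p under 0.05. Their medians by mouse were highest in mice 13M, 7F and 11M, at 1.76, 1.95 and 1.34 on the log2 scale above the *Atm*-WT mean, and mice 13M and 7F were also the lowest for the 39 genes. The part of residual blood in that pattern was not tested. The share of counts on TEC transcripts, an annotation class that awaits experimental testing, lay between 0.354% and 0.529% in the *Atm*-KO libraries, above the 0.204% to 0.333% of *Atm*-WT, and its part in the values of the 39 genes was not tested.

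**Figure D5:**
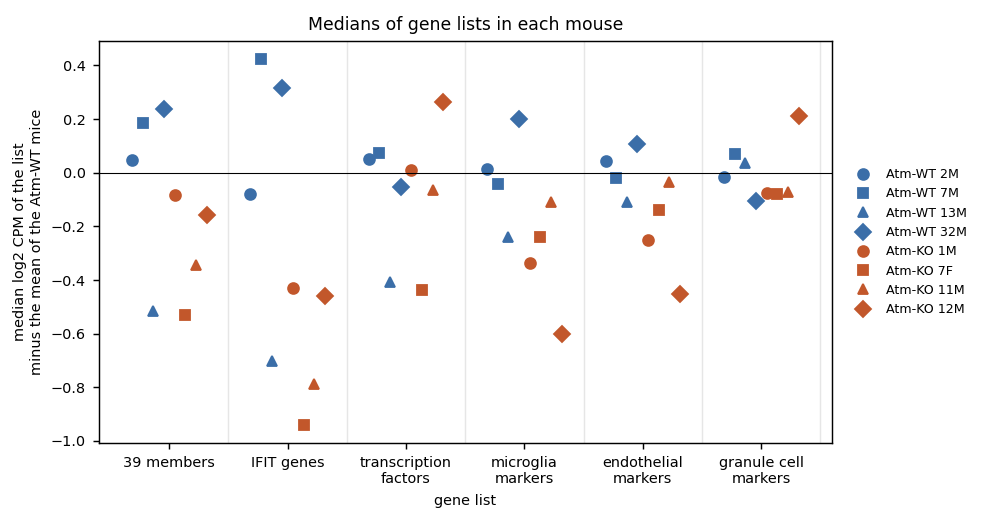
Median log2 CPM of 6 gene lists (x axis) in each mouse, minus the mean of the *Atm*-WT mice (y axis), with *Atm*-WT mice in blue and *Atm*-KO mice in orange. Mice 13M and 7F are the lowest for the 39 genes, at −0.52 and −0.53, while mouse 12M is the lowest for microglia and endothelial markers. Mouse 13M is the lowest *Atm*-WT mouse for these markers too.

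A further 80 genes of the pathway were read in the same fit, of which 66 passed the filter on low counts. None had an adjusted p under 0.05 in edgeR, and 13 of the 66 were lower (8.48% of all genes tested) and 3 were higher (11.7% of all genes tested) at an unadjusted p under 0.05, with a median of −0.18. DESeq2 called *Slfn5* and *Irgm1* lower and *Tyk2* higher, against 2.44% and 5.05% of all genes with an adjusted p. Without the filter on low counts, edgeR called *Irgm1* alone of these genes (adjusted p = 0.0445), against 0.479% of all genes tested called lower. The interferons themselves were all but undetected. Of 11 interferon genes, 8 had 0 counts in every library, and the highest count of any was 6, for *Ifnk* in mouse 1M.

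The 10 genes with the smallest p included 2 relatives of *Ifitm3*. *Ifitm1* had means of 1.16 ± 0.112 and 0.722 ± 0.131 CPM and *Ifitm2* of 0.823 ± 0.160 and 0.467 ± 0.0642 CPM (SD, n = 4 each), with log2 fold changes of −0.68 and −0.81. In both, the genotypes did not overlap. The same held for *Slfn5*, a Schlafen protein (log2 fold change −0.42, edgeR adjusted p = 0.0942), and for *Irgm1*, a GTPase of the response to interferon gamma (log2 fold change −0.54, adjusted p = 0.0963). *Tlr7*, the endosomal sensor of single-stranded RNA, *Ticam1*, the adaptor of TLR3, and *Znfx1*, an RNA-binding helicase, had log2 fold changes of −0.75, −0.47 and −0.24. With 1 library left out they ranged from −0.95 to −0.59, from −0.56 to −0.38 and from −0.31 to −0.15.

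On the higher side stood *Tyk2*, the kinase bound to IFNAR1. It was at 13.6, 13.1, 14.6 and 13.1 CPM in *Atm*-WT and at 18.6, 15.3, 17.2 and 21.0 CPM in *Atm*-KO mice (log2 fold change 0.41, SE 0.10, edgeR adjusted p = 0.104). Its genotypes did not overlap, as was the case for *Stat2*, which acts after it. *Tyk2* lies on the chromosome of *Atm* (chromosome 9, 21015363 to 21042689, GRCm39), and the part of that position in its difference was not tested. *Oas1b* and *Ikbke*, a kinase related to TBK1, had log2 fold changes of 1.02 (SE 0.38) and 0.69 (SE 0.28). In *Oas1b* the genotypes did not overlap either, but narrowly, at 0.465 CPM in *Atm*-KO mouse 7F against 0.457 CPM in *Atm*-WT mouse 7M. Its counts were low, from 10 to 68 per mouse. *Ikbke* was at 0.46 when 1 surrogate variable was added to the model. The 6 measured genes that clear nucleic acid had a median log2 fold change of 0.00 and none had an unadjusted p under 0.05. *Trex1* was listed at 0 in every library, and its exons lie wholly within *Atrip* on the same strand.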

How the data were processed

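The deposited table held raw counts per gene, which the authors obtained from frozen cerebellar RNA sequenced on an Illumina HiSeq platform, checked with FastQC 0.11.9, aligned with STAR to GRCm39 and counted with featureCounts (tools per the submitters' processing notes). The annotation was given as Gencode Release 28. Versions of STAR and featureCounts and the strand and pair settings are not given in the sources used here. Between 67.3% and 73.3% of counts from 1 to 50 were even numbers in each library, so a count may be a read or a pair. Identifiers were matched without version to GENCODE vM39 on GRCm39 (56017 of 56691, 98.8%), which gave symbols, positions and exon lengths for TPM.

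The genotypes of the labels were tested against each other in edgeR (version 4.0.16, under R 4.3.3) with all 8 libraries (filterByExpr, 22423 genes, TMM, glmQLFit and glmQLFTest, Benjamini-Hochberg adjustment over all genes tested, no covariate). log2 CPM used a prior count of 2. The procedure was tested on simulated data. Named were all 39 genes, with values per mouse for those with an unadjusted p under 0.05, without overlap, with a mouse beyond the limit for outliers or among the 5 largest log2 fold changes, and for *Cgas*, *Sting1*, *Irf7*, *Isg15* and *Stat2*; of other pathway genes, the 10 smallest p. A gene that the rule lists by name is not reported here. The genes and lists were chosen with earlier results of these data known. Alternatives were RLE factors, library size alone, DESeq2 1.42.0, limma voom 3.58.1, no filter, at least 10 counts in every library, protein-coding genes alone, 1 surrogate variable from sva 3.50.0, and each library left out in turn. Promoters came from a RefSeq table on GRCm38.p6, another build than that of the counts, and were matched by symbol. The 95% intervals of log2 fold changes come from the edgeR fit and include the spread between mice, whereas the limit for a count of 0 (3 counts) covers counting error only.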

Additional observations from a re-analysis of the deposited data

Results flagged for a closer look

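Values of single mice were compared with the range of their own genotype by Dixon's test in 134 groups of 4 mice, and 5 lay beyond its 95% limit, where chance flags about 1 in 20 groups (6.7 of these). *Ifih1* was at 8.93 CPM in *Atm*-KO mouse 12M, above the 6.73 to 6.92 CPM of the other *Atm*-KO mice. *Gbp7* was at 3.29 CPM in *Atm*-KO mouse 7F, below the other *Atm*-KO mice at 5.53 to 5.91 CPM, and *Tlr7* was at 2.25 CPM in the same mouse, above the others at 1.33 to 1.38 CPM. The median of the 5 sensor and kinase genes was −0.46 on the log2 scale in mouse 7F, where the other *Atm*-KO mice had 0.11 to 0.15. The median of the 7 other induced genes was −0.54 in *Atm*-WT mouse 13M, where the other *Atm*-WT mice had 0.09 to 0.19.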

How the results depend on the processing

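Over 17 alternatives, 32 of the 39 genes kept the sign of their log2 fold change. Adjusted calls among the 39 numbered 7 lower and 1 higher with DESeq2 (2.44% and 5.05% of all genes with an adjusted p). With no filter 4 were called lower, *Ifit3*, *Ifitm3*, *Ifi27* and *Lgals3bp* (0.479% of all genes tested). Those called lower were 2 with mice 13M and 7F left out together (0.111% of all genes tested) and 0 to 2 with 1 library left out (0.00436% to 0.0699%). With 1 library left out, unadjusted calls ranged from 7 to 15 lower (5.67% to 8.63% of all genes tested) and from 1 to 2 higher (7.90% to 13.8%), and genes without overlap from 4 to 14 lower (6.12% to 8.43%) and from 1 to 2 higher (7.17% to 12.6%). With mice 13M and 7F both out, 14 genes were lower and 2 higher without overlap (11.5% and 16.3% of all genes tested), and 2 were higher at an unadjusted p under 0.05 (13.7%). The other pathway genes lower at that p numbered 8 with library size alone (4.66% of all genes tested), 7 with protein-coding genes alone (7.41%) and 7 to 18 with 1 library left out, and the higher ones 1 with a surrogate variable (7.69%). *Atm* passed the threshold with DESeq2 (log2 fold change −0.66), no filter (−0.66), a surrogate variable (−0.72) and without mouse 32M (leave-one-out range −0.74 to −0.59). *Ifnar1* took 0.00494 with RLE factors, 0.050 with library size alone, 0.026 with at least 10 counts in every library, 0.044 with protein-coding genes alone and 0.043 without mice 13M and 7F (leave-one-out −0.0292 to 0.0386). *Oas2* took 0.00576, 0.053, 0.026 and 0.043 with the first 4 of these, 0.0011 with DESeq2 and 0.16 with voom (leave-one-out −0.22 to 0.28). With voom, *Mx1* took 0.74, *Zbp1* −0.24 and *Ifi44* 0.018 (leave-one-out −0.57 to 0.23, −0.0873 to 0.58 and −0.44 to 0.30). *Mx2* took −0.16 with a surrogate variable and −0.0139 without mice 13M and 7F (leave-one-out −0.13 to 0.45), and *Gbp3* ranged from −0.31 to 0.00565 with 1 library left out. The cause of these changes was not tested. *Mx1* and *Zbp1* gave no value with at least 10 counts in every library. No paired analysis was possible because the labels pair no mice. *Cgas*, *Isg15*, *Oas1a*, *Oas2*, *Zbp1* and *Mx1* each had fewer than 100 counts in every mouse, and the part of depth in their wide intervals was not tested.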
